A study of Mus musculus with 62 samples.

Results

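The transcripts examined were those of 9 genes that oligodendrocytes use to build and hold the myelin sheath: Mbp, Mobp, Mal, Cldn11, Opalin, Mag, Mog, Cnp and Ugt8a. They were chosen by name, with earlier results of these data known, and all 9 were among the 11121 genes of the count table. The libraries were 3′-end barcoded bulk RNA (BRB-seq) libraries of wild-type male C57BL/6j mice aged 15 weeks. CTR mice were controls with no stress, and mCRS mice had gone through multimodal chronic restraint stress, restraint repeated under varied settings of light, sound and other disturbance. The prefrontal cortex (PFC) was represented by 15 CTR and 15 mCRS libraries and the nucleus accumbens (NAc), a ventral part of the striatum, by 16 CTR and 16 mCRS libraries. Which PFC and NAc libraries came from the same mouse is not given, so libraries were treated as independent. The tissue mixes neurons, glia and vessels.

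Myelin is the multilayered membrane that oligodendrocytes wrap around axons to speed conduction. Its compact layers are held together by cytoplasmic proteins such as myelin basic protein (Mbp) and by tetraspan membrane proteins, its inner and outer faces carry immunoglobulin-like adhesion proteins, and its lipid is rich in galactosylceramide and cholesterol. Forebrain grey matter holds oligodendrocytes at a density that differs between areas, and the fibre bundles that cross the striatum are heavily myelinated. Myelin genes are switched on together as precursors mature, by transcription factors that include Olig, Sox10, Nkx6-2 and Myrf.

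Positions are given on GRCm38. Mobp lies on the plus strand at chr9:120149707-120181484, Cnp on the plus strand at chr11:100574904-100591729 and Cldn11 on the plus strand at chr3:31149920-31164324. On the minus strand lie Ugt8a at chr3:125865271-125938619, Mal at chr2:127633226-127656695, Mag at chr7:30899176-30914873, Mog at chr17:37010743-37023398 and Opalin at chr19:41061710-41077113. All 9 are protein coding, and counts were made per gene, so the isoforms of Mbp, which has 14 coding transcripts in the annotation, are not separated. The annotation places another gene of the count table across 1 of them: Dnajc7, on the opposite strand, covers the 3′ end of Cnp, and since the strand setting of the counting is not given in the sources used here, reads of the pair may not be fully separated.

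Start-site sequences were at hand for 8 of the 9 genes (RefSeq, GRCm38.p6, 300 bases per gene), all but Mbp. The stretches upstream of the start sites of Mobp, Cnp and Mag are shown because these 3 genes differed between the regions in both treatments and hold letters bound by factors of the oligodendrocyte lineage. Capitals mark ACAAAG (or CTTTGT on the other strand), the core letters that SOX proteins bind, and CTGGCAC, the letters that Myrf binds. The stretches run from 5′ to 3′ and end before both the RefSeq and the GENCODE start site.
Mobp, chr9:120149492-120149706, plus strand: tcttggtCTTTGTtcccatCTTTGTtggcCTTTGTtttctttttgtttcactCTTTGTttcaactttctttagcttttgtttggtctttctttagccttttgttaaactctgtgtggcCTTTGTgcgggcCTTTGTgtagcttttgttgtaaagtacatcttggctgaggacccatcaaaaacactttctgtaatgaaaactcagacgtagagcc
Cnp, chr11:100574689-100574903, plus strand: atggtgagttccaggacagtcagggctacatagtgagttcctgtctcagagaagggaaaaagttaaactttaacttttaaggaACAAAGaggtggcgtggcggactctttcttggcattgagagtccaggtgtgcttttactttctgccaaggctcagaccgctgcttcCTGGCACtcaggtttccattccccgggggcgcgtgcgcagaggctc
Mag, chr7:30914874-30915113, minus strand: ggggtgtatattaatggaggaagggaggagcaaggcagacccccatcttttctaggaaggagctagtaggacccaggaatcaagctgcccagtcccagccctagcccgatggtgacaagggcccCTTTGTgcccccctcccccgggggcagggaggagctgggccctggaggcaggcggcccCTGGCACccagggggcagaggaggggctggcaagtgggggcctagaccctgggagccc

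In the Mobp window ACAAAG occurred in 6 copies, all on the opposite strand and all upstream of the start site. Of 32851 windows of this length in the table, 18.7% held at least 1 copy and 1 window, that of Mobp, held 6. ACAAAG was also found in Mag, Cnp and Opalin. CTGGCAC stood in Mag, Cnp and Opalin, against 5.01% of all windows, and its variant CTGGTAC in Mog, against 2.24%. The E-box letters CAGCTG (16.3% of all windows) and CATCTG (17.15%, the same sites as CAGATG read on the other strand) were found in Opalin. GGGCGG, bound by Sp1, was in Cldn11, Ugt8a and Cnp (35.7% of all windows) and CCAAT in Cldn11 (37.4%). ACAATG (12.6% of all windows) and TATAAA (13.6%) were in none of the 8 windows, and the Mal window held none of the 10 letter strings searched on both strands. The matches are descriptions of letters and not of bound sites.

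The libraries held 945286 to 4857359 counts and detected 69.7% to 97.4% of the listed genes. PFC mCRS libraries were the shallowest group by median total (1966931 counts against 2398072 in PFC CTR) and had the highest median share of counts on the 7 mtDNA genes (15.7% against 11.97%). A gene is called here where its FDR, the Benjamini-Hochberg adjusted p of edgeR's quasi-likelihood test over all genes tested, is below 0.05. Regional markers separated PFC from NAc in CTR mice. Of 15 striatal projection neuron markers 14 were called higher in NAc, Penk and Tac1 among them, against 2.09% of all genes. Of 14 cortical excitatory markers 9 were called lower, Slc17a7 and Tbr1 among them, against 4.23% of all genes, and 1 was called higher. A pair of NAc libraries stood apart. NAc CTR 7 held 1016 summed striatal marker CPM against a group median of 7634, with cortical markers at 291 CPM, the lowest of its group, and NAc mCRS 10 held 24068 CPM of choroid plexus markers against a group median of 268. Without this pair, 5 of the 9 myelin genes in CTR and 6 in mCRS were called between the regions, the same counts as with it.

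Mbp, on chromosome 18, encodes the basic protein that holds the cytoplasmic faces of compact myelin together, and its level was 1.67-fold higher in NAc than in PFC of CTR mice. Its CPM (counts scaled to each library's total with TMM factors) ran in PFC CTR from 878 to 3187 with a median of 1879.7, and in NAc CTR from 2405 to 4165 with a median of 3406. All 16 NAc CTR libraries lay above the PFC CTR median and 10 of them above the highest PFC CTR library, so the groups overlapped at their edges. In mCRS mice Mbp ran from 1276 to 3686 CPM (median 1684) in the PFC and from 2637 to 4582 CPM (median 3544) in the NAc. The NAc-to-PFC log2 fold change was 0.74 (SE 0.13, FDR = 2.6e-05) in CTR and 0.78 (SE 0.12, FDR = 3.8e-06) in mCRS. In bulk tissue, more oligodendrocytes and more RNA per oligodendrocyte cannot be told apart.

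**Figure D1:**
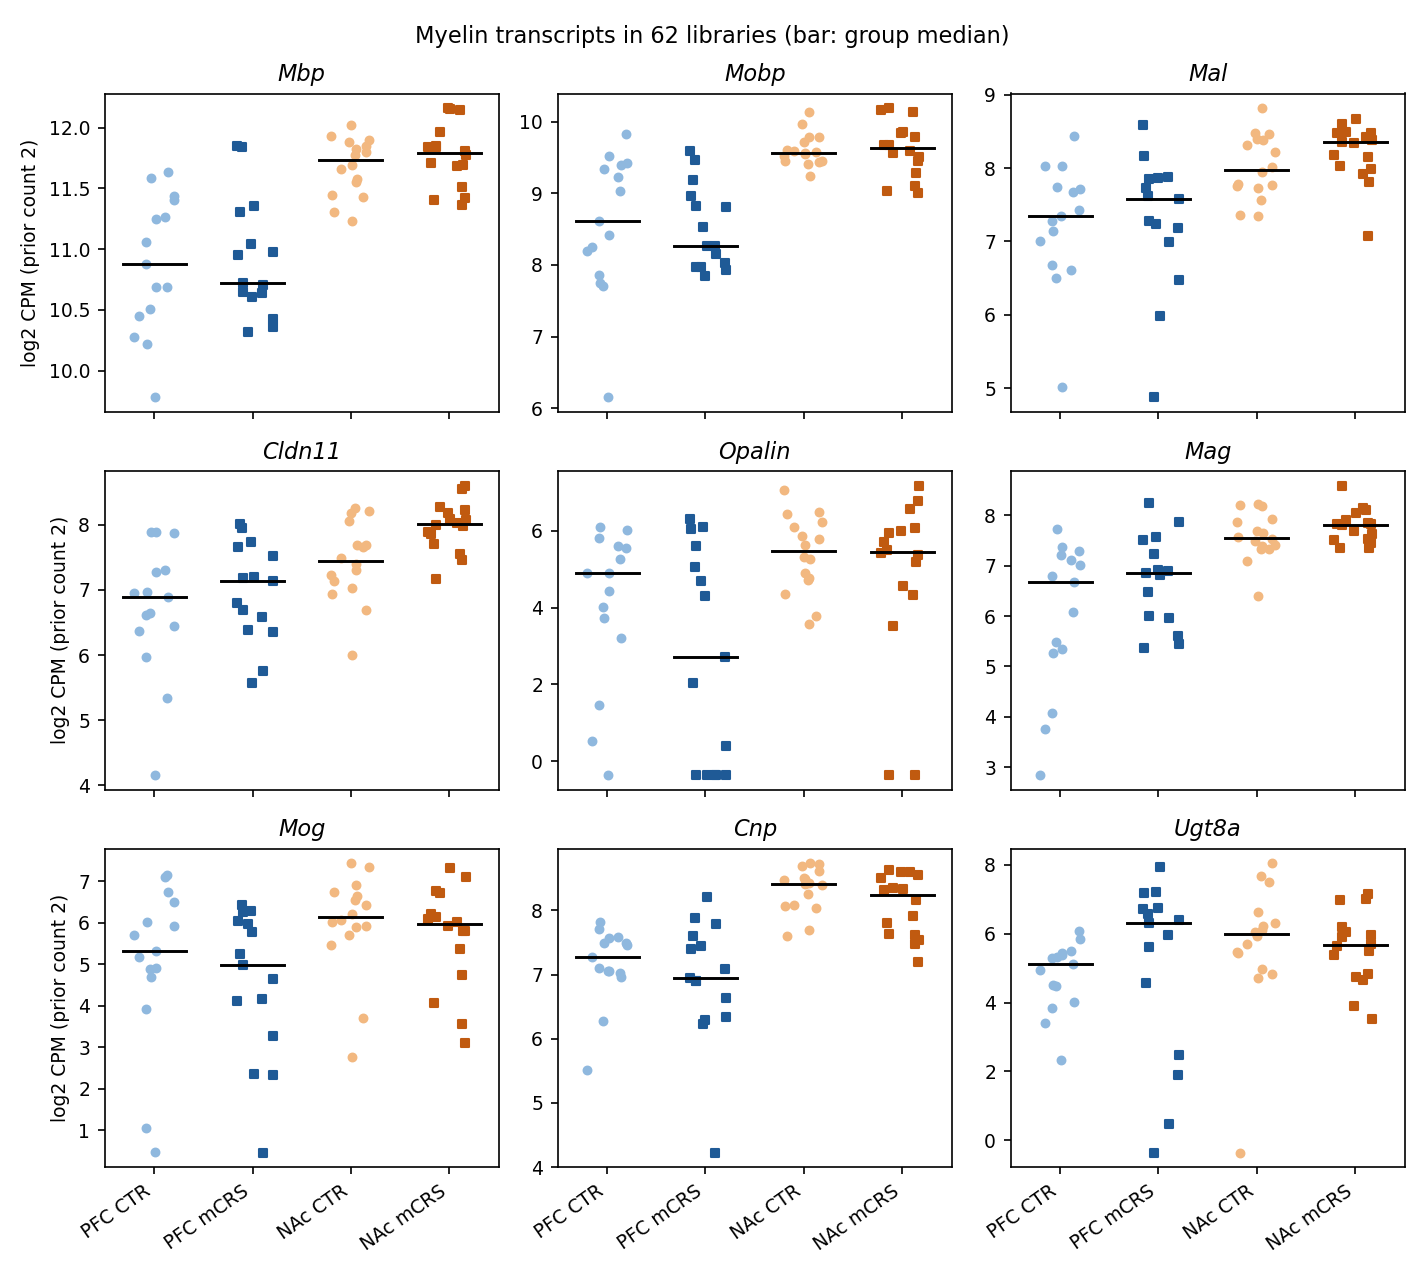
Level of each of the 9 genes (log2 CPM, prior count 2, y axis, 1 panel per gene with its own scale) in the 62 libraries by group (x axis; 15 PFC CTR, 15 PFC mCRS, 16 NAc CTR, 16 NAc mCRS); points are libraries and bars group medians. NAc medians of Mbp, Mobp, Cnp, Mag, Mal, Cldn11, Mog and Opalin stood above the PFC medians in both treatments, and that of Ugt8a in CTR only. Opalin and Ugt8a had libraries at 0 counts.

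Of the 9 genes, 5 were called in CTR mice (Mbp, Mobp, Cnp, Mag and Mal) and 6 in mCRS mice (the same 5 and Cldn11), all higher in NAc. Over all genes, 6.32% of 9932 were called in CTR and 2.09% were called higher in NAc, and in mCRS these shares were 6.31% and 2.07% of 9452. The median log2 fold change over the 9 genes was 0.81 in CTR and 0.85 in mCRS, beside 0.02 and 0.03 over all genes tested. The CTR and mCRS comparisons rest on separate libraries. Astrocyte markers moved the same way: 5 of 16 were called higher in NAc of CTR mice and 4 of 16 in mCRS mice, with summed levels of 5964 to 8686 CPM in PFC CTR and 7841 to 9644 CPM in NAc CTR, and their part in the result was not tested. The share of counts on mtDNA genes was lower in NAc (median 10.4% in CTR), and with library sizes taken without those genes 5 of the 9 in CTR and 6 in mCRS were again called.

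Mobp, a small basic protein of compact myelin of the central nervous system, ran from 70.2 to 911 CPM in PFC CTR (median 391) and from 606 to 1126 CPM in NAc CTR (median 759). In mCRS mice it ran from 229 to 771 CPM in the PFC (median 308) and from 514 to 1170.2 CPM in the NAc (median 794), where 9 of 16 NAc libraries exceeded every PFC library. Its log2 fold change was 0.81 (SE 0.19, FDR = 0.0030) in CTR and 1.02 (SE 0.17, FDR = 1.0e-05) in mCRS. The lowest PFC library, PFC CTR 1, stood below the next of its group, PFC CTR 8, at 208 CPM.

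Mal, a proteolipid that sorts membrane to the myelin sheath, ran from 31.5 to 346 CPM in PFC CTR (median 162) and from 162 to 452 CPM in NAc CTR (median 252). In mCRS mice the ranges were 28.5 to 385 CPM (median 191) in the PFC and 134 to 409 CPM (median 326) in the NAc. Mal had the smallest margin of the called genes, with a log2 fold change of 0.67 (SE 0.21, FDR = 0.042) in CTR and 0.74 (SE 0.22, FDR = 0.024) in mCRS. In CTR its FDR passed 0.05 when any of 17 of the 31 libraries was left out, reaching 0.090. In mCRS it passed 0.05 without PFC mCRS 9 (0.0551) or PFC mCRS 12 (0.0506), without libraries under 75% of genes detected (0.0595) and with genes detected as a covariate (0.158).

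Cldn11, the claudin that seals the lamellae as a tight junction, ran from 17.1 to 237 CPM in PFC CTR (median 118) and from 63.4 to 303 CPM in NAc CTR (median 173), with a log2 fold change of 0.59 (SE 0.26, FDR = 0.21). In mCRS mice it ran from 46.6 to 257 CPM in the PFC (median 139.7) and from 143 to 387 CPM in the NAc (median 257), and the log2 fold change was 0.88 (SE 0.22, FDR = 0.0054). Cldn11 was called in mCRS alone, but the change of the regional difference with treatment was -0.29 for mCRS against CTR in PFC minus the same in NAc (95% interval -0.96 to 0.38, FDR = 0.99997; 0.00907% of 11025 genes were called in that test, and 0 of the 9), so the CTR and mCRS differences were not shown to differ. Opalin, a transmembrane glycoprotein of mature oligodendrocytes, was at 0 counts in 1 PFC CTR, 5 PFC mCRS and 2 NAc mCRS libraries and reached 68.6, 78.9 and 144 CPM in those groups. In NAc CTR it ran from 11.2 to 134 CPM. Its log2 fold changes of 0.81 (SE 0.53, FDR = 0.56) in CTR and 1.12 (SE 0.76, FDR = 0.59) in mCRS did not pass the test, and the 95% intervals ran from -0.26 to 1.87 and from -0.41 to 2.65. The value moved with the setting: in mCRS it was 0.60 with genes detected as a covariate, while the means of log2 CPM differed by 2.08 in mCRS and 1.32 in CTR.

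Mag, the adhesion protein on the axon-facing layer of myelin, ran from 6.39 to 212 CPM in PFC CTR (median 102) and from 83.4 to 299 CPM in NAc CTR (median 187). In mCRS mice it ran from 40.2 to 302 CPM in the PFC (median 115) and from 163 to 385 CPM in the NAc (median 224). All 16 NAc mCRS libraries lay above the PFC mCRS median, and 1 above the highest PFC library. The log2 fold change was 1.13 (SE 0.30, FDR = 0.012) in CTR and 0.85 (SE 0.24, FDR = 0.020) in mCRS, the latter with an FDR of 0.055 without NAc mCRS 9. Mog, the adhesion protein of the outermost layer and a known autoantigen, ran from 0.611 to 141 CPM in PFC CTR (median 39.3) and from 6.01 to 173 CPM in NAc CTR (median 70.3). Its log2 fold changes of 0.54 (SE 0.44, FDR = 0.69) in CTR and 0.79 (SE 0.51, FDR = 0.54) in mCRS did not pass the test, and the latter was 0.53 with genes detected as a covariate. The lowest PFC CTR library held 1 read of Mog against a median of 106 reads.

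Cnp, the cyclic nucleotide phosphodiesterase that keeps cytoplasm between the lamellae, separated the regions of CTR mice most completely of the 9. It ran from 44.7 to 226 CPM in PFC CTR (median 153) and from 194 to 425 CPM in NAc CTR (median 342), and 14 of 16 NAc libraries exceeded every PFC library. In mCRS mice it ran from 17.9 to 294 CPM in the PFC (median 123) and from 145 to 395 CPM in the NAc (median 301), with 8 of 16 above every PFC library. The log2 fold change was 1.12 (SE 0.18, FDR = 7.1e-06) in CTR, a 2.17-fold difference, and 0.98 (SE 0.24, FDR = 0.0036) in mCRS. Dnajc7, the gene on the opposite strand, had log2 fold changes of 0.11 (SE 0.22) and 0.16 (SE 0.25) in the same comparisons.

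Ugt8a, the enzyme that makes galactosylceramide, showed no regional difference past the test. In CTR mice it ran from 4.27 to 66.9 CPM in the PFC (median 34.1) and from 0 to 264 CPM in the NAc (median 63.3), with a log2 fold change of 1.37 (SE 0.45, FDR = 0.055). In mCRS mice it ran from 0 to 244 CPM in the PFC (median 79.0) and from 10.8 to 141 CPM in the NAc (median 50.2), with a log2 fold change of -0.39 (SE 0.51, FDR = 0.85). Ugt8a was the 1 gene of the 9 with an estimate below 0 in either treatment, while its mean log2 CPM in mCRS mice was higher in NAc by 0.52, so the direction there depends on the scale, and the estimate was -0.15 with genes detected as a covariate. In CTR it was called in 4 of 13 alternative settings and in 6 of 31 fits that left out 1 library. Its FDR was 0.014 without NAc CTR 2, the library at 0 counts, 0.17 without NAc CTR 12 and 0.012 with DESeq2.

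**Figure D2:**
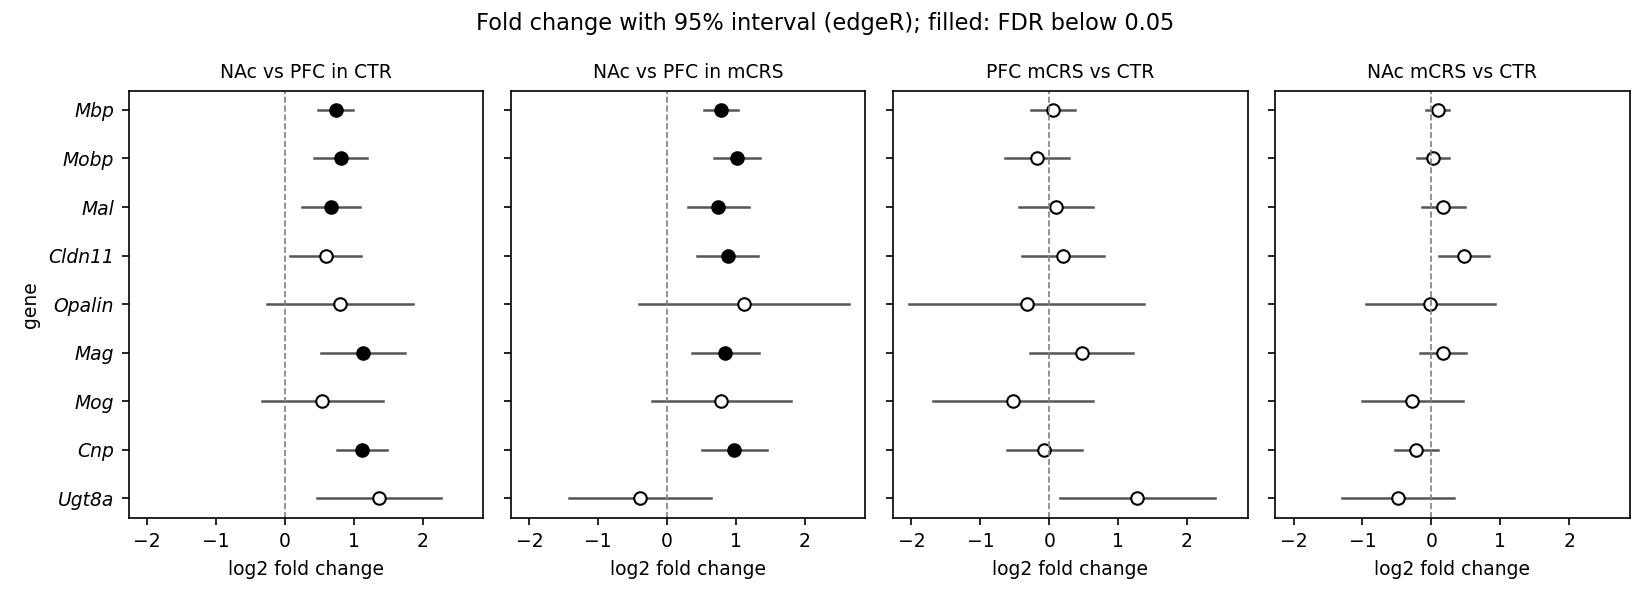
Log2 fold change (x axis) of each gene (y axis) with its 95% interval in 4 comparisons, from the edgeR fits; filled points have an FDR below 0.05. In the regional comparisons 5 genes in CTR and 6 in mCRS are filled, and in the mCRS comparisons none is.

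Other genes of the oligodendrocyte lineage were read beside the 9. Of 53 further mature oligodendrocyte genes tested in CTR mice, 46 had estimates above 0, against 51.1% of all genes, and 5 were called higher in NAc, against 2.09% of all genes, with none called lower. Plekhb1, a membrane-associated protein, had a log2 fold change of 0.71 (SE 0.19, FDR = 0.012) in CTR and 0.80 (SE 0.19, FDR = 0.0022) in mCRS, and Efnb3, an ephrin ligand, 1.15 (SE 0.21, FDR = 6.8e-05) and 1.09 (SE 0.29, FDR = 0.0093). In mCRS mice 42 of 50 were above 0, against 51.9% of all genes, with 4 called higher, against 2.07%, and 1 lower. Of 10 transcription factors tested in each treatment, 2 were called higher in NAc and 1 lower, in CTR and in mCRS alike. Over all genes 4.23% were called lower in each treatment. Olig1 was higher in NAc by 1.16 (SE 0.24, FDR = 0.00057) in CTR and 1.58 (SE 0.35, FDR = 0.0012) in mCRS on the log2 scale. The other higher call was Nkx6-2 in CTR, by 2.53 (SE 0.67, FDR = 0.0091), and Tcf7l2 in mCRS, by 2.699 (SE 0.81, FDR = 0.028). Nkx6-2 was not called in mCRS, nor Tcf7l2 in CTR. Zeb2 went the other way, by -1.34 (SE 0.29, FDR = 0.0011) in CTR and -1.37 (SE 0.27, FDR = 0.00023) in mCRS. Zeb2 is also made by neurons and other cells.

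Genes of the precursor and newly formed stages were called higher in NAc in 3 of 20 cases in CTR and 1 of 15 in mCRS. Over all genes 2.09% were called higher in CTR and 2.07% in mCRS. Cacng4, a gene of this list, had log2 fold changes of 1.87 (SE 0.40, FDR = 0.00078) in CTR and 2.30 (SE 0.43, FDR = 9.4e-05) in mCRS. Which cells of the tissue made Cacng4 was not tested. Bcas1, a marker of newly myelinating cells, had 1.11 (SE 0.33, FDR = 0.025) in CTR and 0.90 (SE 0.30, FDR = 0.059) in mCRS. Few genes of the lipid lists were called. Of 31 sphingolipid and fatty acid genes 1 was called higher in CTR, against 2.09% of all genes, and the list's median was -0.02. The 1 called was the desaturase Scd2 (log2 fold change 0.54, SE 0.11, FDR = 0.00027). In mCRS 2 of 29 were called higher, Scd2 and the elongase Elovl6, against 2.07% of all genes. Of 22 cholesterol synthesis genes 2 were called in CTR, both lower in NAc, where 4.23% of all genes were called lower, among them the sterol oxidase Msmo1 at -1.01 (SE 0.29, FDR = 0.018). In mCRS 1 was called, Msmo1 at -1.19 (SE 0.29, FDR = 0.0041), against 4.23% of all genes called lower. Neurons and astrocytes also make these lipid enzymes. Of 15 genes of the paranode and node, where myelin meets the axon membrane, 0 were called in CTR by edgeR, with 5 at an unadjusted p below 0.05, where 1491 of all 9932 genes were, and 3 were called in mCRS, 2 of them higher in NAc, against 6.31% of all genes called.

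mCRS left the levels of the 9 genes without a called change in either region. In the PFC 0 of 9 were called by edgeR, and 0 by DESeq2, where 0% of 8916 genes were called, and 1 of 9 had an unadjusted p below 0.05, against 3.5% of all genes. In the NAc 0 of 9 were called by either tool, where edgeR called 0.00986% of 10141 genes. By edgeR 1 of 9 had an unadjusted p below 0.05, against 2.04% of all genes. The median log2 fold change over the 9 was 0.05 in the PFC and 0.03 in the NAc, beside -0.01 over all genes in both. For Mbp, the most deeply counted of the 9, the 95% interval of the log2 fold change ran from -0.27 to 0.37 in the PFC and from -0.07 to 0.26 in the NAc. For Mobp it ran from -0.64 to 0.29 and from -0.20 to 0.26, and for Cnp from -0.61 to 0.47 and from -0.53 to 0.10. Wider intervals were left for Opalin, from -2.03 to 1.38 in the PFC and from -0.95 to 0.92 in the NAc, and for Mog, from -1.68 to 0.64 and from -1.01 to 0.46.

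The unadjusted values under 0.05 belonged to Ugt8a in the PFC and Cldn11 in the NAc. Ugt8a in PFC mCRS spread to both sides of the CTR libraries: 8 of 15 lay above the highest CTR library and 3 below the lowest, and the log2 fold change was 1.28 (SE 0.56, p = 0.027, FDR = 0.9997 by edgeR). It was 1.02 with an unadjusted p of 0.083 without PFC mCRS 12, the p was 0.067 and 0.056 with library size and genes detected as covariates (edgeR), and the means of log2 CPM differed by 0.28. The difference of its mCRS effect between the regions was 1.75 on the log2 scale (SE 0.70, p = 0.014, FDR = 0.99997 by edgeR), and over all genes 3.09% had an unadjusted p below 0.05 in that test. Cldn11 in the NAc was above the CTR median in 15 of 16 mCRS libraries, with a log2 fold change of 0.48 (SE 0.18, p = 0.011, FDR = 0.99995 by edgeR). Of the 44 further mature oligodendrocyte genes tested in the PFC and 54 in the NAc, 0 were called by edgeR in either region and 0 had an unadjusted p below 0.05.

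Pooled over the treatments, the SD between libraries was larger in the PFC than in the NAc for each of the 9 genes. The same held at the median of all genes. The SD of log2 CPM within treatment groups was 0.52 in the PFC and 0.25 in the NAc for Mbp, 0.80 and 0.31 for Mobp, 1.23 and 0.40 for Mag, and 0.80 and 0.42 for Cnp. The low-count genes were wide in both regions, with 1.87 and 1.22 for Mog, 2.45 and 1.73 for Opalin and 1.998 and 1.53 for Ugt8a. In CTR alone Ugt8a went the other way, with an SD of 1.01 in PFC and 1.89 in NAc. In mCRS alone its SD was 2.64 in PFC and 1.05 in NAc. Over 9333 well-counted genes the median was 1.82 in the PFC and 1.56 in the NAc. A limma test of the absolute deviation from the group median, chosen after the values were seen, called 2 of 9, both narrower in the NAc, where 0.579% of 9333 genes were called and 0.471% were called narrower: Mag (difference -0.65, SE 0.16, FDR = 0.029) and Mobp (difference -0.39, SE 0.10, FDR = 0.034). Mbp did not pass (difference -0.23, SE 0.07, FDR = 0.092). The difference was below 0 for all 9 genes and for 72.4% of all genes. The regions also differed in count level. In CTR mice the median count was 167 in PFC and 612.5 in NAc for Mag, and 933 and 2074.5 for Mobp. The part of count level in the spread was not tested.

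**Figure D3:**
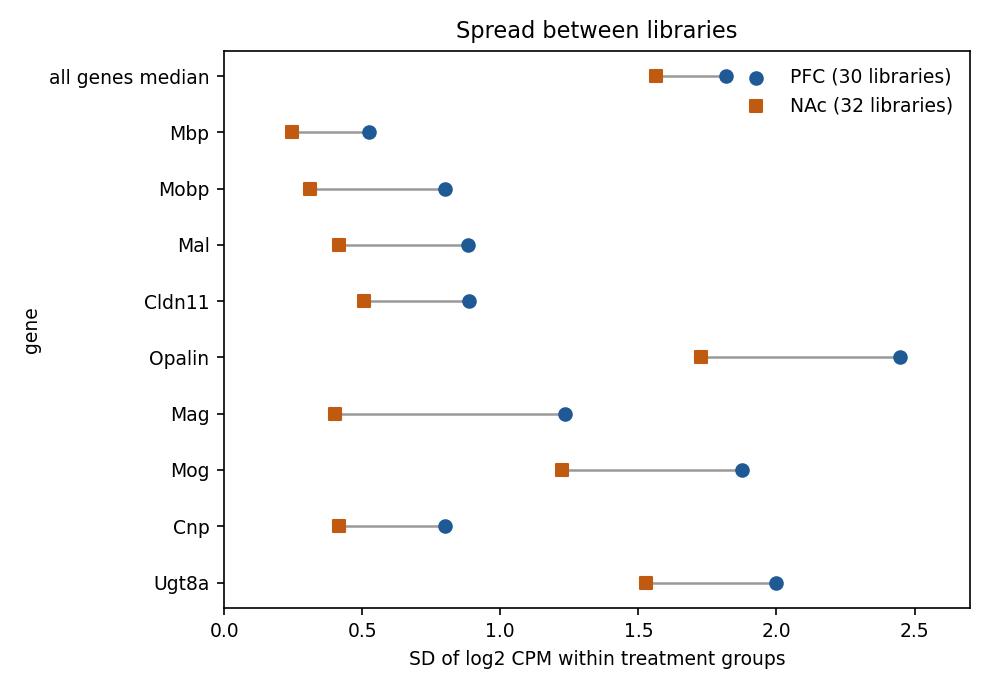
SD of log2 CPM between libraries within treatment groups (x axis) for each gene and for the median of all well-counted genes (y axis); circles are the 30 PFC libraries and squares the 32 NAc libraries. Every gene of the 9 has its PFC circle to the right of its NAc square, from 0.52 against 0.25 for Mbp to 2.45 against 1.73 for Opalin. Treatments are pooled, and in CTR alone Ugt8a was wider in the NAc (1.89 against 1.01).

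Some libraries were extreme in several of the genes. PFC CTR 1 was the lowest of its group in 6 of the 9 genes, with the 9 together at 0.123% of its counts against a group median of 0.274%, and NAc CTR 1 was the lowest of its group in 5. At the other end PFC mCRS 2 was the highest of its group in 4 genes, with 0.522% of its counts on the 9. Of 36 pairs of the 9 genes, 30 had a positive Pearson r across the 15 PFC CTR libraries and 30 across the 15 PFC mCRS libraries, against 24 across the 16 NAc CTR and 18 across the 16 NAc mCRS libraries. The median r was 0.36, 0.27, 0.23 and 0.03 in these groups, with jackknife SEs of 0.150, 0.121, 0.112 and 0.119, so no order of the groups is read from them. In NAc CTR it was 0.12 without NAc CTR 1 and 0.12 with Spearman's rho. These medians stood beside 0.0071 to 0.031 over all pairs of 9333 genes. Those genes were not matched to the 9 on count level, and the part of count level in the medians was not tested.

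Mbp and Mobp were the pair that held in both PFC groups. Their r was 0.87 in PFC CTR (n = 15, permutation p adjusted over 144 relations = 0.0072; Spearman rho 0.84, permutation p adjusted = 0.017) and 0.85 in PFC mCRS (n = 15, permutation p adjusted = 0.012; rho 0.84, permutation p adjusted = 0.017). Without the 2 libraries farthest from the median of Mbp, r was 0.81 and 0.69. The libraries of each group fill 2 blocks of columns of the count table, and within the blocks r was 0.95 and 0.66 in PFC CTR and 0.97 and 0.51 in PFC mCRS. Mobp and Ugt8a had an r of 0.79 in PFC CTR (n = 15, permutation p adjusted = 0.028), but rho did not pass (0.73, permutation p adjusted = 0.13) and r was 0.53 without the 2 libraries farthest from the median of Mobp. In the NAc 0 of 36 pairs passed in either treatment by r or by rho, with 6 pairs of CTR and 10 of mCRS at an unadjusted permutation p below 0.05.

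**Figure D4:**
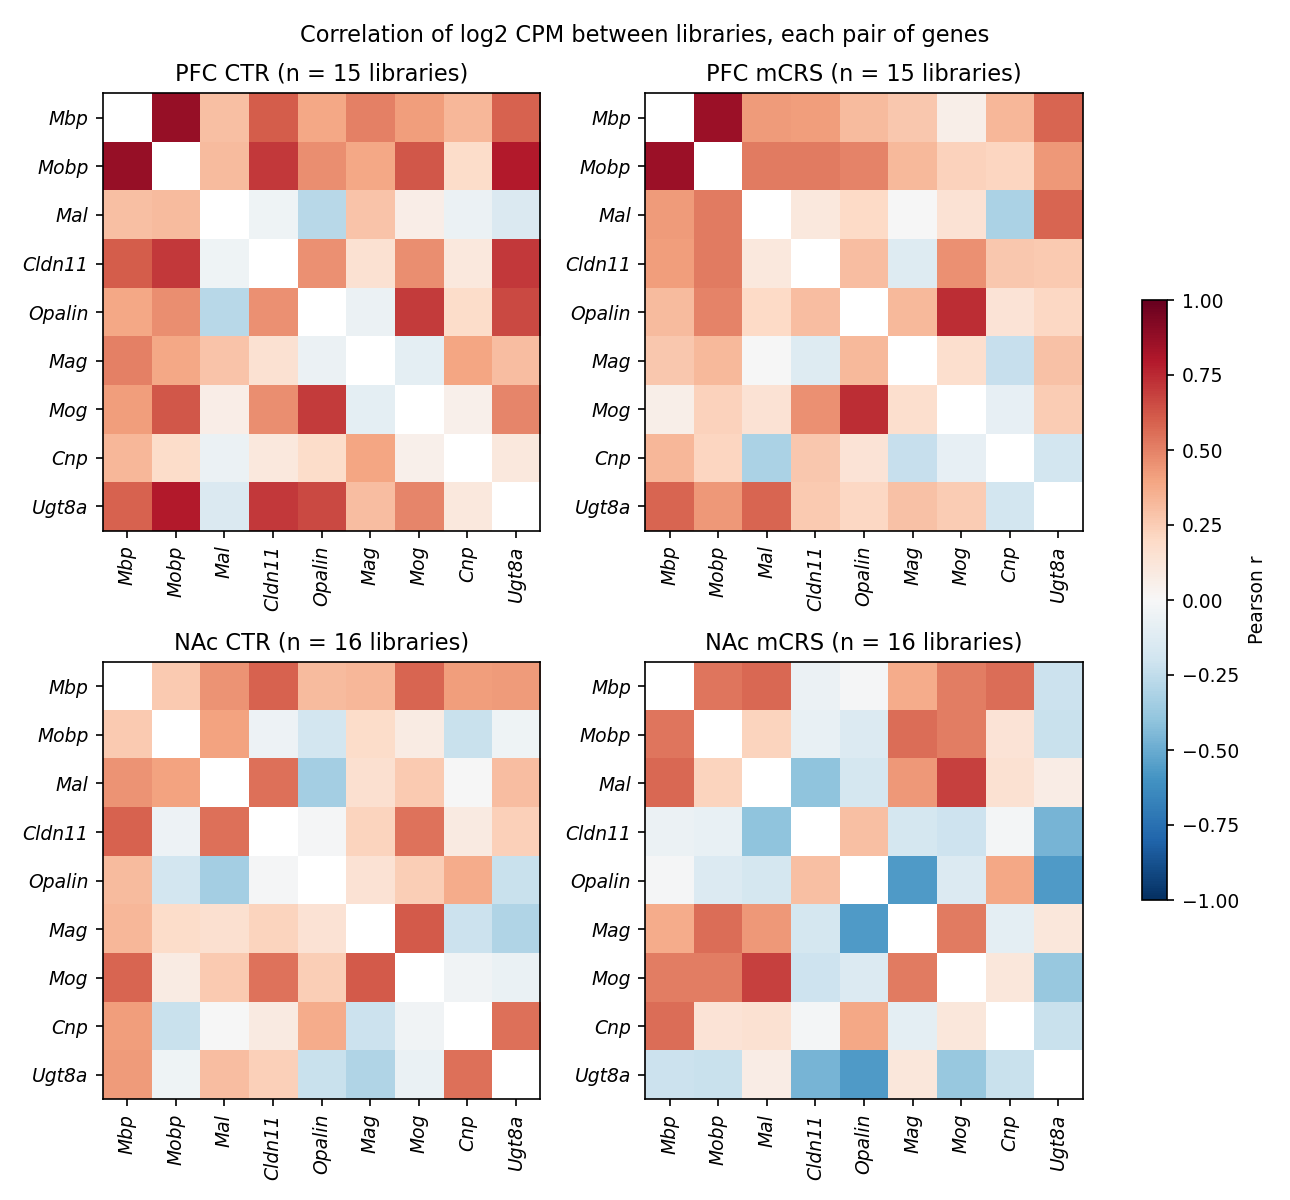
Pearson r of log2 CPM between libraries for each pair of the 9 genes (both axes list the genes), 1 panel per group; red is positive and blue negative on a scale from -1 to 1. The darkest square in both PFC panels is Mbp with Mobp (0.87 and 0.85), and the NAc mCRS panel holds as many pairs at or below 0 as above it.

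Mbp was then set against the summed CPM of the other marker lists and against 3 measures of library quality within each group, 60 relations in all. In each group 3 of 15 passed by r after adjustment. The further mature oligodendrocyte genes followed Mbp in all 4 groups, with r of 0.83 in PFC CTR (n = 15, permutation p adjusted = 0.0044; rho 0.825), 0.89 in PFC mCRS (n = 15, permutation p adjusted = 0.0012; rho 0.80), 0.85 in NAc CTR (n = 16, permutation p adjusted = 0.0012; rho 0.83) and 0.72 in NAc mCRS (n = 16, permutation p adjusted = 0.017; rho 0.67). The permutation p of rho, adjusted, lay between 0.0051 and 0.049 in these 4 groups. That list also holds genes that neurons make, such as Kif5a and Fth1. By column block the list's r with Mbp was 0.97 and 0.51 in PFC CTR and 0.93 and 0.73 in PFC mCRS. In the NAc the block values were 0.89 and 0.83 in CTR and 0.79 and 0.66 in mCRS.

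Striatal projection neuron markers ran with Mbp in the PFC of CTR mice and against it in the NAc of mCRS mice. In PFC CTR r was 0.80 (n = 15, permutation p adjusted = 0.0047; rho 0.84, permutation p adjusted = 0.0051) and 0.71 without the 2 libraries farthest from the median of the markers. The summed markers ran from 823 to 2475 CPM in that group, and the 6 libraries with the highest marker sums held the 6 highest Mbp levels. In PFC mCRS r was 0.57 (n = 15, permutation p adjusted = 0.11; rho 0.49, permutation p adjusted = 0.21). In NAc mCRS r was -0.80 (n = 16, permutation p adjusted = 0.0047; rho -0.74, permutation p adjusted = 0.017), -0.71 without the 2 farthest libraries, and -0.80 without NAc mCRS 10, over marker sums of 4226 to 10395 CPM. In NAc CTR r was -0.27 (n = 16, permutation p adjusted = 0.53; rho -0.09, permutation p adjusted = 0.79), and -0.01 without NAc CTR 7. By column block r was 0.79 and 0.82 in PFC CTR, 0.81 and 0.37 in PFC mCRS, -0.36 and -0.77 in NAc CTR and -0.87 and -0.82 in NAc mCRS. Over both treatments 14 of the 15 markers had a positive r with Mbp in the PFC and 0 of 15 in the NAc, and no marker was at 0 across a group. The markers' median r was 0.39 in the PFC and -0.33 in the NAc, beside 0.05 and 0.12 over all genes. The first NAc CTR block and the NAc count both include NAc CTR 7, and neither was computed without it. The part of these neurons in the level of Mbp was not tested.

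**Figure D5:**
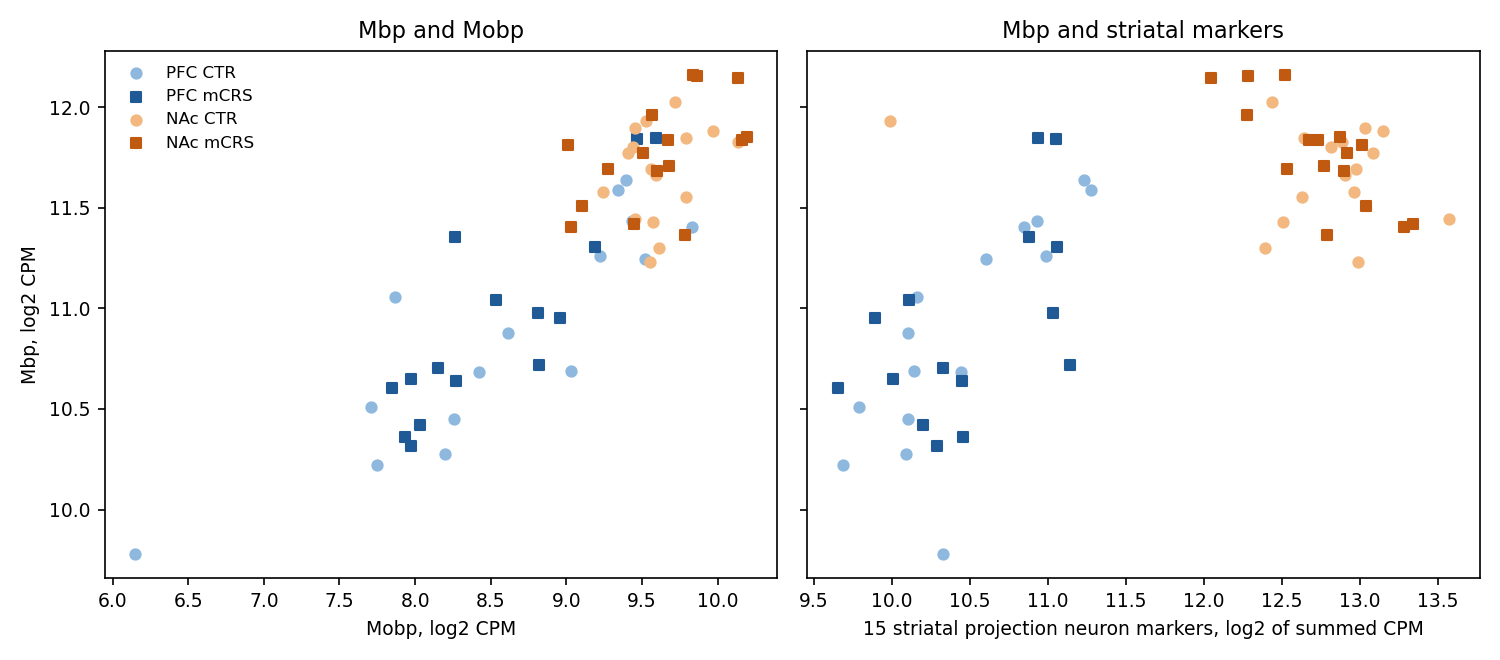
Mbp (log2 CPM, y axis) in the 62 libraries against Mobp (log2 CPM, left) and against the summed CPM of 15 striatal projection neuron markers (log2, right); circles are CTR and squares mCRS, blue PFC and orange NAc. On the right the PFC points climb with the markers (r = 0.80 in CTR), the NAc mCRS points descend (r = -0.80), and 1 NAc CTR library lies among the PFC marker sums.

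The share of counts on mtDNA genes went against Mbp in the PFC. In PFC CTR r was -0.65 (n = 15, permutation p adjusted = 0.049; rho -0.70, permutation p adjusted = 0.049) and in PFC mCRS -0.66 (n = 15, permutation p adjusted = 0.041; rho -0.57, permutation p adjusted = 0.12), and r was -0.63 and -0.58 without the 2 farthest libraries. In the NAc r was -0.23 in CTR and 0.09 in mCRS, with adjusted permutation p of 0.57 and 0.83. By column block r was -0.85 and -0.54 in PFC CTR and -0.81 and -0.44 in PFC mCRS. Mbp was scaled here to library sizes that include the mtDNA counts, and the relation was not computed without them. The parts of scaling and of library quality in it were not tested. Astrocyte markers followed Mbp in PFC mCRS by r (0.73, n = 15, permutation p adjusted = 0.019) though not by rho (0.61, permutation p adjusted = 0.11). The remaining relations that passed by r did not pass by rho, with adjusted permutation p of 0.16 to 0.18: cholesterol synthesis genes in NAc CTR (r 0.64, and 0.30 without the 2 farthest libraries), sphingolipid and fatty acid genes in NAc mCRS (r 0.63 and 0.39) and endothelial and mural markers in NAc CTR (r 0.63 and 0.49).

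Single genes were ranked by the correlation of their log2 CPM with that of Mbp, after centring each group, over 30 PFC and 32 NAc libraries, as a description with no test. In the PFC Mobp ranked first of 8915 genes (r 0.85), and the 10 nearest also held Kif5a at rank 2 (0.74), Syndig1l, Angptl6, Gnao1, Eef2, Sbk1 and Ddx54, with r of 0.62 to 0.72 for the latter 6. On the lists were also Ppp1r14a, an inhibitor of myosin phosphatase, at rank 7 (0.65) and Fa2h, which hydroxylates the fatty acids of myelin lipid, at rank 13 (0.61), while Cldn11 and Ugt8a stood at ranks 39 and 57. In the NAc the 5 nearest genes were Dusp26, Tmem130, Ctxn2, Tac2 and Inpp5e (r of 0.69 to 0.72), none of them on the oligodendrocyte lists. The NAc ranking includes NAc CTR 7 and NAc mCRS 10, the libraries that stood apart, and was not computed without them. The nearest of the 9 was Mog at rank 123 of 10140 (r 0.55), and the nearest listed oligodendrocyte genes were Csrp1 at rank 6 (0.68), Lpar1, a lysophosphatidic acid receptor, at rank 22 (0.63) and Ppp1r14a at rank 33 (0.62). All 8 other genes of the 9 had a positive r with Mbp in both regions, with a median of 0.39 in each, beside medians over all genes of 0.05 in the PFC and 0.12 in the NAc.

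Against the mean centred log2 CPM of the 9 genes, to which the genes with the widest spread contribute most, the 10 nearest other genes in the PFC were Cul7, Cyb5d2, Rdx, Atg4c, Fam69b, Ppp1r14a, Lonrf1, Fa2h, Slc48a1 and Jmjd8, with r of 0.60 to 0.63. In the NAc they were Ccnd3, Tmem258, Csrp1, Cdc42se1, Polr2b, Tmbim6, Snx19, Tubb2a, Msn and Nt5c2, with r of 0.73 to 0.83. This NAc ranking too includes the libraries that stood apart. Of these 20 genes, Ppp1r14a, Fa2h and Csrp1 are on the oligodendrocyte and lipid lists, and no gene is among the 10 of both regions.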

How the data were processed

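RNA of each library was reverse transcribed with barcoded oligo-dT primers, pooled and sequenced (BRB-seq). The deposited values are raw read counts per gene, made by the authors with STAR on mm10 (GRCm38) and, per the submitters' processing notes, HTSeq 0.9.1. No molecular identifiers are described, so counts are reads, and amplified copies of 1 molecule may be counted more than once. The SEs of the edgeR fits rest on the variation between libraries. Totals ran from 945286 to 4857359 counts.

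Groups follow the sample labels. Each comparison was fitted by edgeR 4.0.16 (quasi-likelihood, TMM, filterByExpr) in R 4.3.3 over all genes that passed, on its own libraries, with Benjamini-Hochberg FDR. Libraries with the same number in different groups had correlations of -0.038 to 0.058, so numbers were not taken as pairs. Log2 CPM used a prior count of 2. Correlations were tested by 100000 permutations, two-sided. DESeq2 1.42.0, limma 3.58.1, other scalings, filters and covariates, and single libraries left out served as alternatives. Scripts were tested on simulated data.

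Named genes were the 9 genes, up to 3 per list and comparison with the smallest p, and the 10 genes most like the mean of the 9 in each region. Naming of Dnajc7 and of the genes ranked against Mbp, Lpar1 among them, came once their values were known. The members and lists were chosen with earlier results of these data known. The spread test, the relations of Mbp with the lists, likeness to Mbp alone and the removal of libraries that stand apart or detected under 75% of genes were chosen after seeing the data. Positions are from GENCODE. The Mbp start-site sequence was not used here. Some genes of the lists are counted but not reported here by name.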

Additional observations from a re-analysis of the deposited data

How the results depend on the processing

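No member was called for mCRS in either region, or for the change of the regional difference with treatment, under any alternative run. Between the regions Mbp, Mobp and Cnp were called in all 31 fits that left out 1 library, in both treatments. The number of genes called over all genes for mCRS in the PFC was 0 and became 2 (library sizes without mtDNA genes), 1 (no filter on low counts), 5 (all 62 libraries in 1 fit) and 1 (replicate block). In the NAc it was 1 and became 2 (no filter, and all 62 libraries) or 0 (DESeq2, replicate block, either covariate of depth, a split of the numbering into low and high numbers, and both removals of libraries). For the change with treatment it was 1 and became 0 (at least 10 counts in 50% of libraries, replicate block, and without libraries under 75% of genes detected). With the replicate block, which rests on shared numbers only, 0, 0, 5, 6 and 0 of the 9 genes were called in the 5 comparisons, the same counts as without it. The block moved log2 fold changes of low-count genes: to 0.58 for Ugt8a under mCRS in the PFC, and to 2.35 in mCRS and 1.35 in CTR for Opalin between the regions.

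Some mCRS estimates near 0 changed sign. Mobp in the PFC became 0.017 and 0.065 with library size and genes detected as covariates. Opalin in the NAc became 0.14 without libraries under 75% of genes detected and 0.15 without the pair that stood apart. The change with treatment became 0.11 for Mal and -0.010 for Cnp without libraries under 75%, and 0.027 for Mbp with genes detected as a covariate. The median spread in the PFC became 0.912, from 0.887, without libraries under 75%. The cause was not tested. With 1 library left out, log2 fold changes ran from -0.037 to 0.11 (Mbp), -0.015 to 0.21 (Mal) and -0.19 to 0.017 (Cnp) in the PFC, and from -0.011 to 0.075 (Mobp) and -0.20 to 0.16 (Opalin) in the NAc. Genes called then ran from 0 to 2 in the PFC and 0 to 1 in the NAc, and from 581 to 642 and 557 to 632 between regions in CTR and mCRS. The median pair correlation ran from 0.25 to 0.41, 0.22 to 0.35, 0.12 to 0.26 and -0.03 to 0.11 in PFC CTR, PFC mCRS, NAc CTR and NAc mCRS.

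Between the regions in CTR, Mal had an FDR of 0.051 with all 62 libraries in 1 fit, 0.065 with library size and 0.098 with genes detected as a covariate. In mCRS its FDR was 0.158 with genes detected as a covariate, 0.0595 without libraries under 75%, and 0.0551 and 0.0506 without PFC mCRS 9 and PFC mCRS 12.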
